A study of Bos taurus with 2 samples.

Results

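The genes described here encode the proteins of the cytosolic ribosome, together with their close paralogs. They were taken by name from a bovine oligonucleotide array: every probe other than a control whose gene name was RPL or RPS followed by a digit, or RPLP0, RPLP1, RPLP2 or RPSA. S6 kinase genes, mitochondrial ribosomal protein genes and the Y-linked paralog were left out. This gave 84 of 32429 gene names, with 307 probes of 60 bases printed on 322 spots. Of these names, 51 belong to the large subunit and 32 to the small subunit, and the remaining name, RPS19BP1, matched the rule although its product is a binding partner of RPS19 and no ribosomal protein. By a list of 77 core ribosomal proteins, 76 were on the array under their usual symbol, all 31 of the small subunit and 45 of 46 of the large subunit.

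The cytosolic ribosome joins a large subunit, which forms peptide bonds, to a small subunit, which reads the mRNA. Its proteins are made in matched amounts from short, abundant mRNAs that carry a pyrimidine tract at their start, and each gene has many processed copies elsewhere in the genome. Mature spermatozoa have shed nearly all of their cytoplasm and are generally described as translating little on cytosolic ribosomes, so their RNA is mostly a remainder from earlier stages of spermatogenesis.

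The RNA came from spermatozoa of HF crossbred breeding bulls, all male. The high-fertile group and the low-fertile group were each hybridised on 1 array, and both arrays lay on 1 slide. The number of animals behind each array is not given in the labels, so pooling within an array cannot be told apart from a single bull. With 1 array per group there is no replicate check and no test, and every difference below describes these 2 libraries.

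A probe is called measured where all its usable spots were well above background on both arrays by the scanner software's own criterion. Its level is the relative signal, in which 1 is the 75th percentile of the measured probes of that array (raw signals of 148.6 (high-fertile) and 186.3 (low-fertile)). A difference is the log2 relative signal of the high-fertile array minus that of the low-fertile array, so a positive value means a higher signal in the high-fertile library. A gene's difference is the mean over its measured probes, and a gene is counted as higher or lower from 2-fold, a log2 difference of at least 1. Relative signals of different probes do not rank genes by RNA amount, since each probe binds with its own strength.

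Ribosomal protein probes were measured far more often than the array at large: 222 of the 307 (72.3%), against 27.6% of all 51282 probes. Probes designed on RefSeq mRNAs made up most of them, with 208 of 259 measured (80.3%), while 14 of 48 probes designed on other sequences, such as expressed sequence tags, were measured (29.2%). By gene, 77 of 84 names had at least 1 measured probe, 44 of the large and 32 of the small subunit. All 32 small subunit names were thus measured.

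The 7 names without a measured probe all belong to the large subunit. RPL34 was well above background on the high-fertile array only, with a relative signal of 0.281, against 0.0910 on the low-fertile array. Set against the lowest signal well above background on that array, this is at least 1.73-fold higher, the bound used wherever one side was not well above background. RPLP0, the scaffold protein of the ribosomal stalk, had no probe well above background on either array among its 6, although its stalk partners RPLP1 and RPLP2 were measured on all of their probes. RPL22 and RPL32 were not well above background either, nor were the paralogs RPL3L, RPL10L and RPL26L1, of which RPL3L is a striated muscle form and RPL10L a testis form expressed in male meiosis.

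The labelled cell type was checked on marker lists. Of 20 spermatozoon and spermatid markers 11 were measured, among them PRM1, TNP1, TNP2, ODF1 and OAZ3, and PRM2, AKAP4, CRISP2, IZUMO1, LDHC, PGK2, SMCP, SPATA18 and TSSK6 were not well above background. Leukocyte markers were measured for 11 of 16 genes, with relative signals that summed over their probes to 140.0 (high-fertile) and 184.0 (low-fertile). Single probes of LYZ (61.3 and 74.8), PTPRC (30.5 and 54.1) and CD3D (31.3 and 39.9) made up most of this, and without these 3 probes the sums were 16.9 and 15.1, so the order of the arrays turned. The genes CD3E, CSF1R and S100A9 were not well above background. On the same 2 arrays the sums were 11.4 and 9.84 for the sperm markers, 11.6 and 9.70 for 6 of 10 epithelial markers (CDH1 and EPCAM not well above background), and 11.5 and 12.1 for 7 of 8 testis somatic markers. Without the 3 brightest probes of each list the sperm sums were 3.12 and 4.01 and the testis somatic sums 4.08 and 3.87. Both orders thus turned too, while the epithelial sums, 4.54 and 3.59, kept theirs. Sums of different lists do not compare amounts of RNA, since they add up different probes. None of 7 markers of spermatogonia and meiosis was well above background. Ribosomal protein mRNAs occur in all of these cell types, and the part of other cells in the values below was not tested. In such bulk RNA, fewer cells of a type and less RNA per cell cannot be told apart.

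Averaged over their measured probes, most ribosomal protein genes had a slightly lower signal in the high-fertile library. The median difference over the 77 measured genes was -0.15, with quartiles at -0.52 and 0.11, and the median over all 11687 measured genes was 0.00, with quartiles at -0.25 and 0.24. Of the 77 genes 51 lay below 0 and 26 above, whereas 50% of all measured genes lay below 0. This split changed with the setting. It was 41 and 36 with the brightest probe per gene, where 49.3% of all genes lay below 0. With the 3′-most RefSeq probe only it was 38 and 38, where 48.0% of all genes lay below 0. With the series matrix values it was 43 and 34 (38.1% of all genes), and with spike-in scaling 73 and 4 (92.7%). At least 2-fold higher were 2 members, RPS7 and RPL18, where 1.87% of all measured genes were called higher. At least 2-fold lower were 2 members, RPL37 and RPL26, where 2.44% of all measured genes were called lower. At either end the count of members is near what the background share gives for 77 genes, so it is no result about ribosomal protein genes.

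The split between the calls hangs on the scaling. It was 2 higher against 2 lower here, 2 against 4 with quantile normalization, 2 against 0 with normexp background correction, with scaling on all probes or with the series matrix values, and 2 against 26 with scaling on the spike-in probes, which also moved the median of all genes to -0.60.

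**Figure D1:**
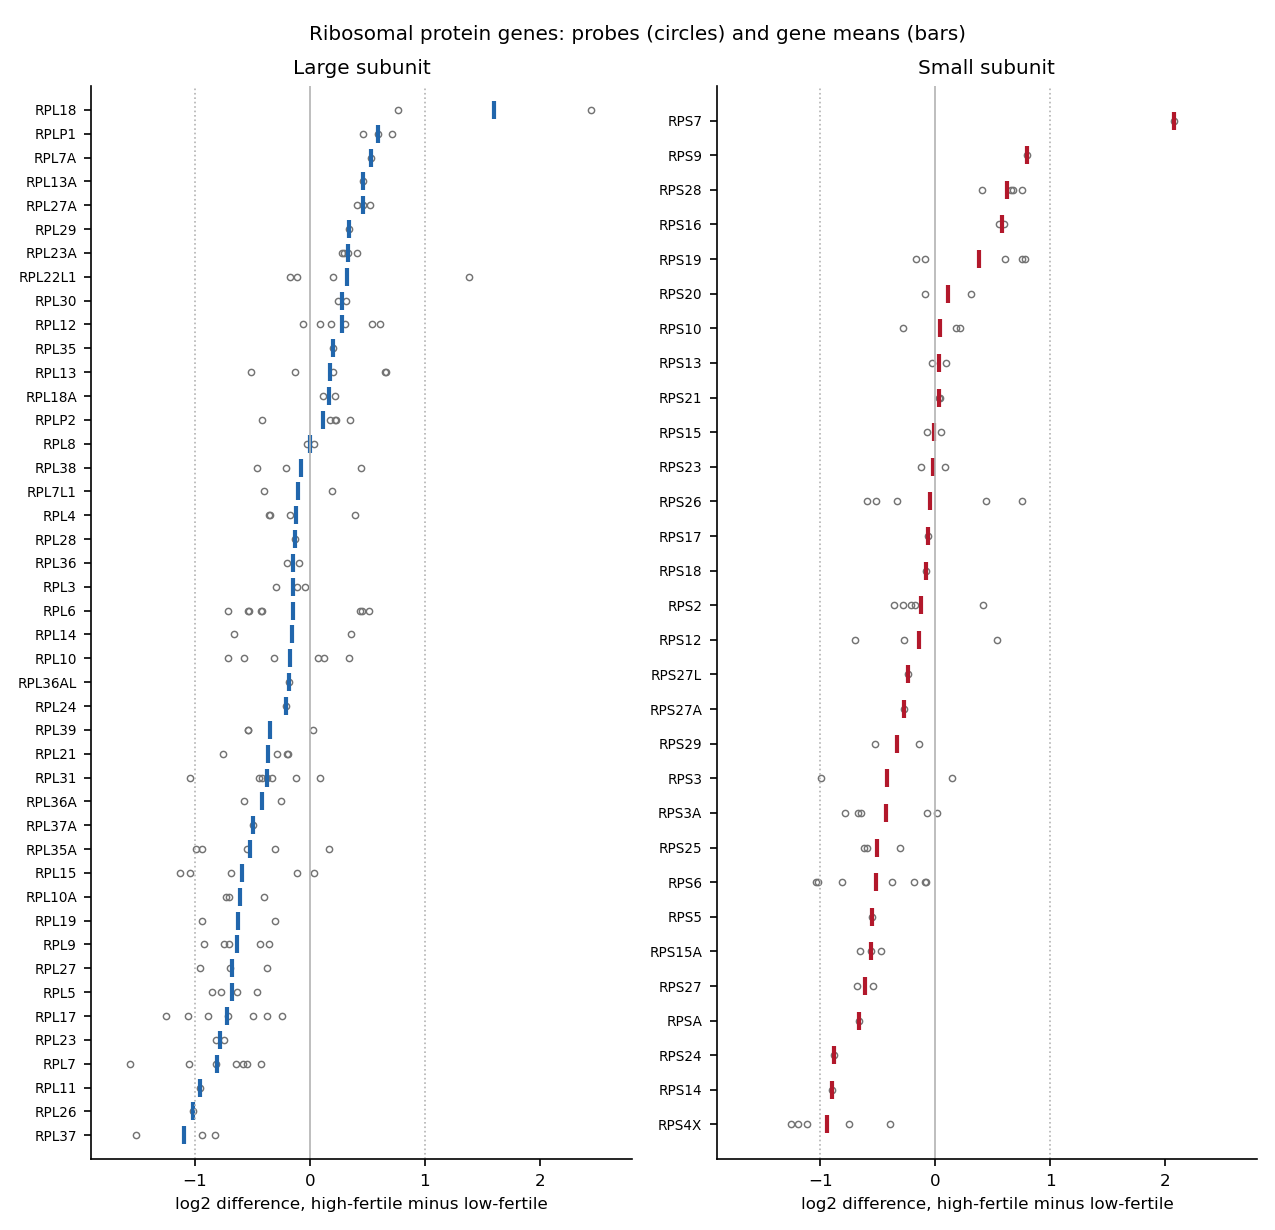
Log2 difference of the high-fertile minus the low-fertile array for measured ribosomal protein genes, with large subunit genes on the left and small subunit genes on the right; circles are single probes, bars are gene means, and dotted lines mark a 2-fold difference. The bars run from -1.09 (RPL37) to 2.08 (RPS7), most lie below 0, and in many genes the probes spread over more than the distance between neighbouring genes.

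The subunits had similar medians. The large subunit median was -0.15, with 29 genes below and 15 above 0, and the small subunit median was -0.10, with 22 below and 10 above. The small subunit median was not below 0 with scaling on all probes (0.00), with the series matrix values (0.01) or with the 3′-most RefSeq probe only (0.02). The quartiles, -0.59 and 0.18 for the large and -0.51 and 0.04 for the small subunit, overlapped nearly throughout, and the medians differed by -0.05.

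Among the 56 genes with at least 2 measured probes, 19 had all probes below 0, 9 had all probes above 0, and 28 had probes of both signs. The pooled SD of the probes within a gene was 0.39 over these genes and 0.42 over all genes of the array with at least 2 measured probes. Repeat spots of the same probe differed less: the SD was 0.11 over 7 member probes and 0.28 over 3038 probes of all genes. Member probes of one gene whose starts lay at most 30 bases apart differed with an SD of 0.19 over 55 pairs, and those at least 60 bases apart with an SD of 0.45 over 202 pairs. The spread within a gene was therefore larger than that of repeat spots, and larger between distant than between overlapping probes.

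**Figure D2:**
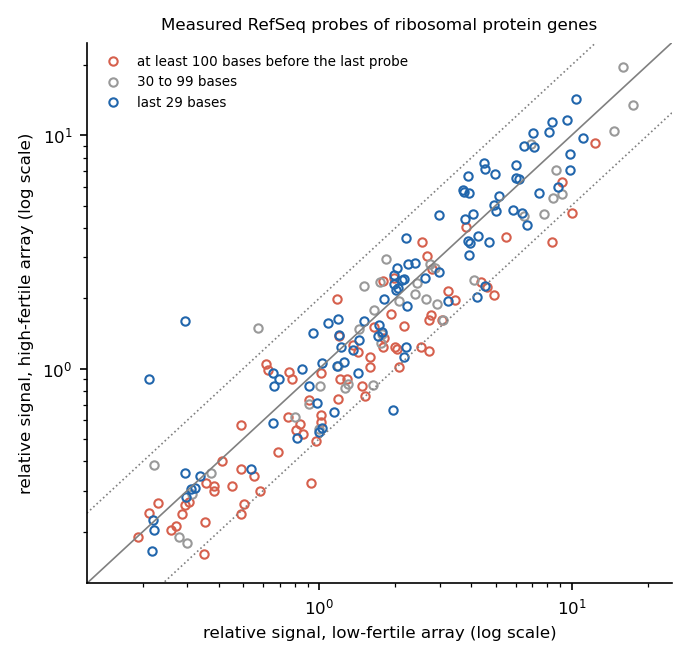
Relative signal of each measured RefSeq probe of the ribosomal protein genes on the low-fertile (x) and high-fertile (y) array, both axes logarithmic; the solid line marks equal signal, the dotted lines a 2-fold difference, and colour the distance to the last RefSeq probe of the same mRNA. Probes in the last 29 bases lie on both sides of the solid line, while probes at least 100 bases before the last one lie mostly below it.

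The differences followed the position of the probe in its mRNA. Position was counted as the number of bases between the start of a probe and that of the last probe designed on the same RefSeq mRNA, the one nearest the poly(A) tail, where the oligo-dT primer used for labelling binds. The median difference of member probes in the last 29 bases was 0.03 (93 probes of 67 genes), which is close to the 0.04 of the other genes' probes there. It was -0.33 at 30 to 99 bases, -0.37 from 100 to under 200 bases, -0.54 from 200 to under 400 bases and -0.51 from 400 to 1600 bases, where the other genes had -0.01, -0.10, -0.14 and -0.04. Beyond 200 bases, 23 of 27 and 22 of 25 member probes lay below 0, against 63.3% and 54.9% of the other genes' probes. Across member probes the Spearman correlation of the difference with this distance was -0.33 (208 probes of 76 genes), and across the other genes' probes -0.09 (7248 probes). Probes of a gene share its RNA and all probes share the 2 arrays, so these are descriptions.

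**Figure D3:**
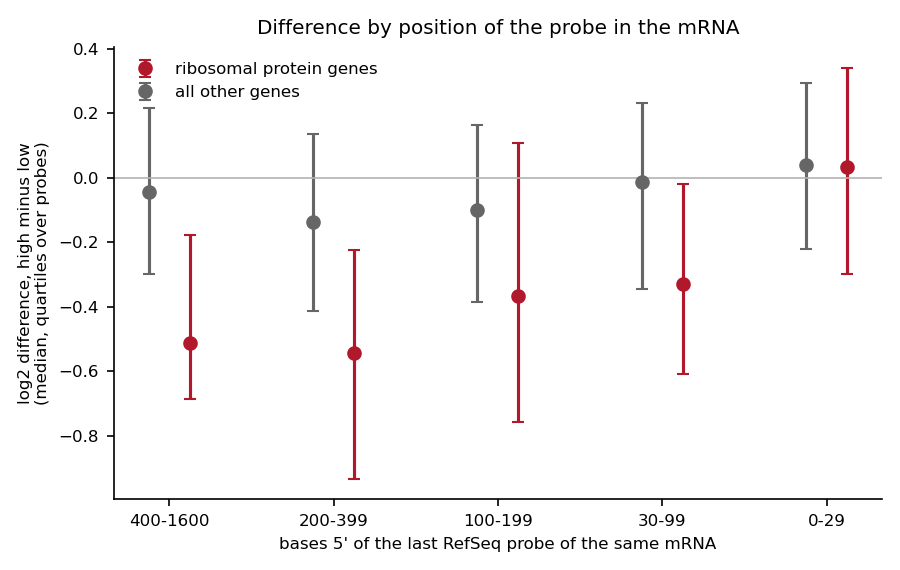
Median log2 difference (high-fertile minus low-fertile, points) with quartiles (bars) by distance of the probe from the last RefSeq probe of its mRNA, 5′ on the left and 3′ on the right, for ribosomal protein genes (red) and all other genes (grey). The medians of the ribosomal protein genes run from -0.51 at 400 to 1600 bases to 0.03 in the last 29 bases, while those of the other genes stay between -0.14 and 0.04.

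The same was seen within single mRNAs, where each gene is its own reference. In 35 members a pair of measured probes on the same RefSeq mRNA started at least 100 bases apart. The 5′-most probe had the lower difference in 30 of the 35 (85.7%), against 57.6% of 1143 other mRNAs with such a pair and 58.4% of all 1178. The median of the 5′-most minus the 3′-most difference was -0.57 in the members, with quartiles at -0.77 and -0.21, and -0.10 in the other mRNAs, with quartiles at -0.46 and 0.22. The 5′-most probe was lower by at least 1 on the log2 scale in 7 members (20% of them) and in 5.34% of the other mRNAs. The median difference was -0.57 at the members' 5′-most and 0.08 at their 3′-most probes.

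Both subunits showed the pattern. The median of the 5′-most minus the 3′-most difference was -0.56 over 22 large subunit genes, with 17 below 0, and -0.66 over 13 small subunit genes, all 13 below 0. The distance between the probes differs between members and other mRNAs, with medians of 276 and 796 bases, so the pairs were also set side by side by distance. From 100 to under 200 bases the members' median was -0.40 (12 of 12 below 0) and that of the others -0.20 (67.7% below 0). From 200 to under 400 bases it was -0.68 (9 of 12) against -0.18 (64.6%), and from 400 to under 800 bases -0.62 (7 of 8) against -0.09 (56.6%). Only 3 member pairs lay further apart, with a median of -0.18 against -0.08.

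**Figure D4:**
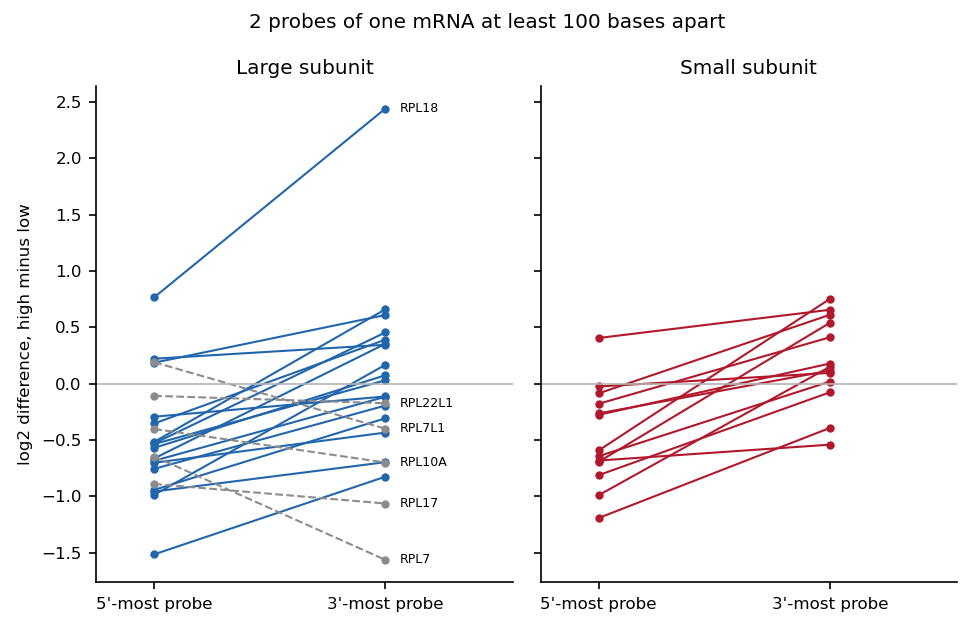
Log2 difference (high-fertile minus low-fertile) at the 5′-most and the 3′-most measured probe of the 35 ribosomal protein mRNAs with such a pair at least 100 bases apart, large subunit on the left and small subunit on the right. Coloured lines climb towards the 3′ end (30 mRNAs) and dashed grey lines descend (5 mRNAs, named).

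Other features that vary with position were looked at beside it. By signal, the member probes at least 100 bases before the last had medians of -0.35 in the lowest class of relative signal (up to 0.976), -0.51 in the middle class and -0.59 in the highest class (from 2.42), against -0.08, 0.03 and 0.14 in other genes. Member probes in the last 29 bases had -0.07, 0.05 and 0.11 in the same classes, against -0.02, 0.14 and 0.28. By GC content, member probes at least 100 bases before the last had medians of -0.54 (below 40%), -0.62 (40 to under 45%) and -0.42 (from 45%), and those in the last 29 bases -0.17, -0.02 and 0.19. The gap between distant and 3′ probes was thus present in every class of signal and of GC content. Some classes were small, with 14 distant probes of 7 genes in the highest signal class and 13 of 9 genes below 40% GC.

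Probes were also split by whether their genome interval exceeds 70 bases, as it does where a probe of 60 bases crosses an intron. At least 100 bases before the last probe, 21 intron-crossing member probes had a median of -0.54 and 55 others -0.50. A further 17 measured member probes shared at least 30 bases with a probe of another gene name, with a median of -0.24, against -0.21 for the other 205. They include the probes of RPS12 at base 399, RPS4X at bases 404 and 696, RPL17 at bases 509 and 548 and RPLP1 at base 454. Signals of near-identical copies cannot be separated on this array, and the part of such copies was not tested.

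The 2 genes with the largest difference each rest on few probes. RPS7, a small subunit protein that also binds MDM2, has a pair of probes at its stop codon on the minus strand of chromosome 8 (build HGSC Btau_3.1), at chr8:116399841-116399900 and chr8:116399837-116399896. They are shown because the largest difference among the members rests on this single stretch. They share 56 bases, and capitals mark the stop codon:

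RPS7, start 603: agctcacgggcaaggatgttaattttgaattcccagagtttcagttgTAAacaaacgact

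RPS7, start 607: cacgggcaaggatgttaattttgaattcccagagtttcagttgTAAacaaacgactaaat

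The first probe stood at a relative signal of 0.899 (high-fertile) and 0.213 (low-fertile), a log2 difference of 2.08. The second stood at 0.791 on the high-fertile array and at 0.135 on the low-fertile array, where it was not well above background, which is at least 4.86-fold higher. Both probes thus read high in the high-fertile library, but they are overlapping readings of one site and not separate support. The difference ranged from 1.16 to 2.32 over the settings in which the gene was measured, and RPS7 was not among the measured genes when both signals had to be at least 4 times the lowest one well above background.

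RPL18, a large subunit protein, has its measured probes at base 285 of its mRNA (chr18:55079117-55079644, across an intron) and at base 561 (chr18:55078286-55078345), both on the minus strand. They are shown because the difference at the 3′ site, up to the stop codon in capitals below, was far larger than at the upstream site:

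RPL18, start 285: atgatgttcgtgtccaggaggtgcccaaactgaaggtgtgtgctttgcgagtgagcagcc

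RPL18, start 561, up to the stop codon: gacgagccagccgtggctacaaaaacTAA

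The upstream probe stood at 1.05 (high-fertile) and 0.616 (low-fertile), a difference of 0.77. The probe at the stop codon stood at 1.59 and 0.293, a difference of 2.44. The gene's mean was 1.60 with an SD of 1.18 over its 2 probes, so the size is not settled, although both probes were higher in the high-fertile library. With the brightest probe per gene RPL18 was at 0.77 and no longer counted as higher.

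Other members with all measured probes above 0 were smaller in size. RPS9, a small subunit protein with a role in decoding accuracy, stood at 0.385 (high-fertile) and 0.221 (low-fertile), a difference of 0.80 from 1 of its 2 probes. RPS28, a small protein of the small subunit near the mRNA exit, had 4 measured probes with differences from 0.41 to 0.75 and a mean of 0.62. RPLP1, an acidic stalk protein that helps to recruit translation factors, had 3 probes from 0.46 to 0.72 and a mean of 0.59. Both RPS28 and RPLP1 thus had higher signals in the high-fertile library at every measured probe.

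RPS16, whose tail reaches the decoding site, stood at 1.17 and 0.784, a difference of 0.58 with an SD of 0.03 over 2 probes. RPL7A and RPL13A, both large subunit proteins, had differences of 0.53 and 0.46 from 1 measured probe each. The other RPL7A probe was well above background on the low-fertile array only, at 0.173 (high-fertile) and 0.227 (low-fertile). With no filter on dim probes RPL7A was at 0.07 and RPL13A at 0.72. RPL23A, which sits at the exit of the peptide tunnel, stood at 11.7 and 9.30, a difference of 0.33 with an SD of 0.06 over 4 probes, all within the last 84 bases. RPL27A had 3 probes from 0.41 to 0.52, with a mean of 0.46. They were designed on 3 different sequences and are placed on chromosomes 15, 17 and 18. None of these reached 2-fold, and scaling on the spike-in probes put RPS16, RPLP1, RPL7A, RPL13A, RPL23A and RPL27A below 0.

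At the lower end, RPL37, a zinc-binding large subunit protein, had 3 measured probes, all below 0. At base 168 of its mRNA the relative signal was 0.324 (high-fertile) and 0.926 (low-fertile), a difference of -1.51. At base 230 it was 0.849 and 1.63, a difference of -0.94, and at base 305 it was 1.24 and 2.20, a difference of -0.83. The gap was largest at the 5′-most probe. The gene mean was -1.09 with an SD of 0.37, and it stayed between -1.69 and -0.76 over all settings tried.

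RPL26, a protein at the tunnel exit, had a single probe, at chr19:28518212-28518271 on the minus strand, shown because the call rests on it alone:

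RPL26, start 367: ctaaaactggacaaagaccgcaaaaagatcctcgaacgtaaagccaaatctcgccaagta

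It stood at 2.25 (high-fertile) and 4.54 (low-fertile), a difference of -1.01. Over the settings tried it ranged from -1.61 to -0.91. Just short of the threshold lay RPL11, which with RPL5 and the 5S rRNA forms the particle that binds MDM2, and RPS4X, the X-linked form of a small subunit protein. RPL11 stood at 1.12 and 2.17 on its single probe, a difference of -0.96. RPL5 was lower as well, with a mean of -0.68 over 4 probes from -0.85 to -0.46.

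RPS4X had 5 probes, all below 0, with a mean of -0.94 and an SD of 0.36. From the 5′ to the 3′ end the relative signals on the high-fertile array were 1.19, 3.50, 4.64, 4.62 and 5.66, and on the low-fertile array 2.72, 8.35, 10.0, 7.76 and 7.43. The differences were -1.19, -1.26, -1.11, -0.75 and -0.39, so the gap narrowed over the last 100 bases. The probes at -1.19 and -1.11 share at least 30 bases with a probe of another gene name. Without them the mean of RPS4X was -0.80. A pair of its probes is shown to make this visible, one at chrX:47882845-47883482, across an intron, and one at chrX:47884148-47884207, both on the plus strand:

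RPS4X, start 531, difference -1.26: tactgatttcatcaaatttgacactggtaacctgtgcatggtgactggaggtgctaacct

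RPS4X, start 747, difference -0.75: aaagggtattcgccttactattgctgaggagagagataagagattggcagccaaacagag

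RPS14, which lines the mRNA path, stood at 0.536 (high-fertile) and 0.997 (low-fertile), a difference of -0.90 from 1 probe. RPS24, one of the genes mutated in Diamond-Blackfan anaemia, stood at 0.557 and 1.02, a difference of -0.88 from 1 of 3 probes. RPL23, a large subunit protein facing the small subunit, had differences of -0.75 and -0.82 on its 2 probes. These genes were thus lower but short of the threshold, and the size depended on the setting. With normexp, RPS14, RPS24 and RPL23 were at -0.62, -0.53 and -0.44, and with spike-in scaling at -1.49, -1.47 and -1.38. With no filter on dim probes RPS14 and RPS24 were at -0.51 and -0.30.

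RPS6, the small subunit protein phosphorylated by S6 kinases, had 7 measured probes and shows the positional pattern over a whole mRNA. At bases 274, 551 and 642 the relative signals were 1.97, 1.24 and 1.02 on the high-fertile array and 3.47, 2.54 and 2.07 on the low-fertile array, with differences of -0.81, -1.04 and -1.02. At bases 715 and 718, where the probes overlap almost fully, the differences were -0.09 and -0.37. At bases 796 and 805 the signals were 9.75 and 4.75 against 11.1 and 5.003, with differences of -0.19 and -0.08. The low-fertile array was thus about 2-fold brighter upstream and almost equal at the 3′ end. The probe at base 642 (chr8:26436405-26436464, plus strand) and the probe over the stop codon, in capitals (chr8:26436653-26436712, plus strand), are shown for this contrast:

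RPS6, start 642, difference -1.02: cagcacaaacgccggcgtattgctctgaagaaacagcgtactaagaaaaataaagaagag

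RPS6, start 796, difference -0.19: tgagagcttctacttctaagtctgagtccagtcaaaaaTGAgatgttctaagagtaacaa

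RPL6, a large subunit protein with 8 measured probes, changed sign along its mRNA. At bases 181, 350, 361, 621 and 628 the differences were -0.53, -0.54, -0.71, -0.41 and -0.42. At bases 807 and 825 they were 0.44 and 0.46, and a probe designed on an expressed sequence tag gave 0.51. The gene mean of -0.15 with an SD of 0.52 hides this turn. The probe at base 621 (chr17:65073797-65073856, plus strand) stood at 1.36 (high-fertile) and 1.81 (low-fertile), and that at base 807 (chr17:65074430-65074489, plus strand) at 11.4 and 8.40:

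RPL6, start 621, difference -0.41: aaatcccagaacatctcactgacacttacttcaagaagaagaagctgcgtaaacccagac

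RPL6, start 807, difference 0.44: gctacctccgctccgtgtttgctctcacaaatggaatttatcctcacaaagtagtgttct

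RPS26, which contacts the mRNA as it leaves the small subunit, turned in the same way over a short distance. At bases 174 and 210 its differences were -0.59 and -0.51, and at bases 345 and 353 they were 0.44 and 0.75. A pair of further probes, at bases 1208 and 1213, was not well above background on both arrays. RPS12, a small subunit protein, went from -0.69 at base 286 to 0.54 at base 399. The latter probe shares at least 30 bases with a probe of another gene name, and without it the mean of RPS12 was -0.48 instead of -0.14. RPL13 went from -0.52 at base 619 to 0.66 at base 859. In between, however, RPL13 had values of 0.21, -0.13 and 0.66 at bases 641, 646 and 671, so that nearby probes of this mRNA did not form a smooth course.

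RPS19, the gene most often mutated in Diamond-Blackfan anaemia, stood at -0.09 and -0.17 at bases 89 and 170 and at 0.78, 0.76 and 0.61 at bases 439, 448 and 454. RPS3, which lines the mRNA entry channel, went from -0.99 at base 469 to 0.15 at base 756. RPL35A and RPL14, both large subunit proteins, went from -0.99 to 0.17 over 129 bases and from -0.66 to 0.35 over 248 bases. In each of these mRNAs the 3′ probe was at or above equality and the 5′ probe below it.

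**Figure D5:**
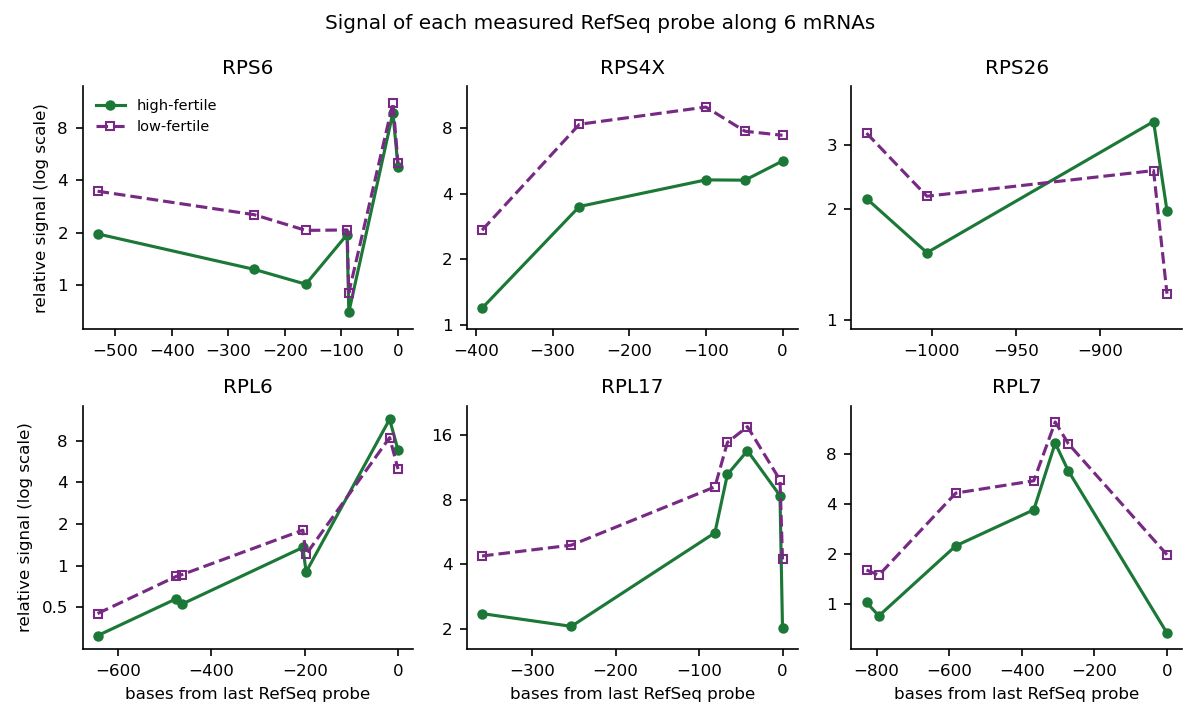
Relative signal (logarithmic axis, own range in each panel) of every measured RefSeq probe along 6 mRNAs on the high-fertile (green, solid) and low-fertile (purple, dashed) array, against bases from the last RefSeq probe of the mRNA. In RPS6 and RPS4X the gap between the arrays is widest upstream, in RPS26 and RPL6 the arrays cross, and in RPL17 and RPL7 the low-fertile array is brighter throughout, with wide gaps at the 3′-most probe (-1.06 and -1.56).

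In 5 of the 35 mRNAs the 5′-most probe did not have the lower difference. RPL7, a large subunit protein, had 7 probes all below 0 and a mean of -0.80. Its differences from base 160 to base 716 were -0.65, -0.81, -1.05, -0.58, -0.42 and -0.54, and its 3′-most probe, at base 988 and 272 bases past its neighbour, was at -1.56 with relative signals of 0.666 and 1.97. RPL17, at the tunnel exit, also had 7 probes all below 0, with a mean of -0.72. From base 191 to base 548 its differences were -0.89, -1.25, -0.71, -0.49, -0.37 and -0.24, so they shrank towards the 3′ end, but the probe at base 551, which overlaps the one before it almost fully, was at -1.06. The probes at -0.37 and -0.24 share at least 30 bases with a probe of another gene name. Without them the mean of RPL17 was -0.88.

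RPL10A, a large subunit protein, had -0.40 upstream and -0.70 at its 3′-most probe. The remaining exceptions were paralogs. RPL7L1, a nucleolar relative of RPL7, was dim, at 0.199 and 0.214, with 0.19 and -0.40 on its 2 measured probes. RPL22L1, the RPL22 paralog, had -0.11, 0.20, 1.38 and -0.17 along its mRNA. The probe at 1.38 sat in a patch of spots in which at least 3 of the 8 neighbours differed 2-fold the same way, and without it the gene's mean went from 0.33 to -0.03.

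Of the other measured paralogs, RPL36AL stood at 1.20 (high-fertile) and 1.36 (low-fertile), and its 4 spots of one probe gave differences from -0.29 to -0.06. RPS27L, the RPS27 paralog, stood at 1.07 and 1.26, a difference of -0.24 from 1 of 3 probes. Neither differed by more than the spread within genes.

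RPL31 and RPL10 had many probes and small means. RPL31, another tunnel exit protein, went from -0.37 at base 295 through -0.45, -0.41, -0.33 and -0.12 to 0.09 at base 382. A probe designed on an expressed sequence tag was at -1.05. It lies on the strand opposite to the gene's RefSeq probes on chromosome 11, and it counts in the gene's mean of -0.38. RPL10, which joins the large subunit late in its assembly, had -0.57 at base 242, -0.31 and 0.34 on nearly coincident probes at bases 550 and 552, and 0.12 and 0.08 at bases 668 and 673. As a group, the 7 tunnel exit proteins RPL17, RPL19, RPL23A, RPL26, RPL31, RPL35 and RPL39 had a median of -0.38, which is the value of RPL31, with 5 below and 2 above 0. Of all measured members 51 of 77 lay below 0, a similar share, so this count is no result about the tunnel exit.

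RPLP2, the other acidic stalk protein, gave 0.22, 0.18, 0.22 and 0.35 on its RefSeq probes, with relative signals from 0.572 to 2.52 on the high-fertile array. A probe of the same name designed on an expressed sequence tag stood at 12.4 and 16.5, a difference of -0.41. It is 1 of 9 member probes that lie on the opposite strand to the other probes of their gene and close to them on the genome. Of these, 5 were measured, named RPL10, RPL27, RPL35A, RPLP2 and RPS12, and all 5 lay below 0, with a median of -0.41. The probe named RPL10 matches the reverse of another RPL10 probe over 49 bases and stood at 0.718 and 1.18. The other 4 share at most 7 bases in reverse with their gene's other probes. Leaving out all 9 moved the median of the members from -0.15 to -0.13. The opposite-strand probe of RPL31, at -1.05, lay further away and was not among the 9.

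The other members lay within the range of those described. The lowest were RPL27, at -0.68 over 3 of 4 probes, and RPSA, also known as the laminin receptor, at -0.66 from 1 probe, and the highest was RPL29, at 0.34 from 1 probe. RPS15A had relative signals of 6.11 and 9.02 and a difference of -0.56 with an SD of 0.09 over 3 probes. RPS27A, which is made as a fusion with ubiquitin, was at -0.27, and RPS10, RPS13, RPS15, RPS21, RPS23 and RPL8 lay between -0.02 and 0.04. RPL8 was measured on 2 of its 4 probes, and its other probes were well above background on the high-fertile array only. There they stood at 0.187 and 0.162, against 0.0755 and 0.0879 on the low-fertile array. RPS19BP1, the name that is no ribosomal protein, was at 0.28 on 1 probe.

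Ribosome constituents named otherwise were looked at beside the members. FAU, which yields RPS30 from a fusion with a ubiquitin-like protein, stood at 1.36 (high-fertile) and 1.58 (low-fertile), a difference of -0.21 with an SD of 0.19 over 4 probes. GNB2L1, the older name of the scaffold protein RACK1, was not well above background on either of its 2 probes.

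Translation factors and other genes whose mRNAs carry the same pyrimidine tract were described next to the members. Of 20 such genes 17 were measured, with a median of -0.17, and 12 lay below and 5 above 0. TPT1, the translationally controlled tumour protein, was the 1 gene at least 2-fold lower, at -1.18 with an SD of 0.40 over 3 probes, and none was at least 2-fold higher. EEF1A1, the elongation factor that brings tRNAs to the ribosome, went from -0.72 at its 5′-most to 0.83 at its 3′-most probe. HNRNPA1 went from -0.69 to 0.28, NACA from -0.22 to 0.79 and PABPC1 from -0.33 to 0.49. In TPT1, EIF4A2, EEF2, NAP1L1 and VIM the 5′-most probe was lower by less, from -0.67 (TPT1) to -0.07 (VIM). EEF1G and EIF4B did not follow, with 0.00 and -0.39 and with -0.87 and -0.95.

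Of genes that assemble ribosomes 22 of 50 were measured (44%), against 91.7% of the ribosomal protein names and 36.0% of all gene names, and they had a median of 0.02, with 11 below and 11 above 0. The 1 gene counted as higher was NPM1, a nucleolar chaperone, at 1.30 from 1 of 3 probes, with relative signals of 0.808 and 0.328. FBL, NMD3, POLR1A, UBTF and the processome gene HEATR1 were among those not well above background on either array. Some assembly mRNAs had a pair of probes at least 100 bases apart. From the 5′-most to the 3′-most probe NCL went from -0.57 to 0.29, UTP6 from -0.56 to 0.04 and NOP56 from -0.44 to -0.03. MPHOSPH10 was nearly level, at -0.05 and 0.02, and EIF6 went from 0.22 to -0.32.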

How the data were processed

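Per the labels' protocols, total RNA was reverse transcribed from an oligo-dT primer and labelled with Cy3. The deposited scanner tables hold linear spot intensities. Per the file headers, Agilent Feature Extraction 11.5.1.1 produced them with background subtraction and spatial detrending, and the build of the probe positions is HGSC Btau_3.1. The deposited series matrix holds log2 values that equalled the log2 processed signal plus a constant per array (-5.12 high-fertile, -5.55 low-fertile; within 0.01 for 98.6% of probes on each array), with column medians of -1.43 and -1.37, so it holds expression with no gene centring.

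From the processed intensities, log2 values per spot (9 spots lost to flags) were averaged per probe, and each array's 75th percentile over measured probes was subtracted, since under 50% of probes were measured. The lowest relative signals well above background were 0.152 and 0.163, no spot was saturated, and the number of arrays, 1 per group, limits the precision. Position within an mRNA comes from the start each probe has in its RefSeq source sequence. Member names were checked against RefSeq symbols of assembly ARS-UCD2.0: 259 probes matched, all to the same symbol. Sequences are the deposited probe sequences.

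Named genes were, per direction, the 8 with the largest difference and probes of one sign, the 6 with the brightest single probe, the 6 with most measured probes, up to 5 with probes of both signs, measured paralogs, genes on one array only, FAU and GNB2L1. Values of a few genes are not reported here. RPL5, RPL8, RPL10A, RPL14, RPL19, RPL29, RPL35A, RPS3, RPS15A, RPS19, RPSA and other names outside it were chosen after their values were seen. The members, lists and tests were chosen with earlier results of these data known. The steps were tested on simulated data. Tools were Python 3.11.15, numpy 2.4.6, pandas 2.3.3, scipy 1.17.1, matplotlib 3.10.9, and limma 3.58.1 in R 4.3.3 for normexp with an offset of 50.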

Additional observations from a re-analysis of the deposited data

How the results depend on the processing

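In all, 12 planned settings and 5 added after seeing the data were tried. The count of members at least 2-fold lower (2) became 0 with normexp background correction, 4 with quantile normalization, 0 with the 75th percentile over all probes, 26 with spike-in scaling, 0 with the series matrix values, 1 with a stricter filter on dim probes and 1 with the median of each GC class subtracted. In the same order, 0.411%, 2.19%, 1.75%, 15.2%, 1.73%, 1.08% and 1.85% of all measured genes were at least 2-fold lower. The count at least 2-fold higher (2) became 0 with the stricter filter, which measured 63 members, and 1 with the brightest probe per gene. Of all measured genes, 2.95% and 2.15% were higher in these settings. Spike-in scaling put the medians at -0.74 for the members, -0.75 for the large and -0.70 for the small subunit, with the median of all genes at -0.60. The other 78 values of these summaries stayed within the spread or within 1.5 times the count, although the small subunit median (-0.10) was 0.00 with the 75th percentile over all probes, 0.01 with the series matrix values and 0.02 with the 3′-most probe only. The members' median stayed below that of all genes in every setting that gave one, by -0.20 (quantile normalization) to -0.04 (no filter, or only the 3′-most RefSeq probe per gene). With the 3′-most probe only, 38 members lay below and 38 above 0. The median of the 5′-most minus the 3′-most difference was -0.31 with normexp (29 of 35 below 0), -0.42 with no filter (37 of 49), -0.63 with the stricter filter (18 of 20), -0.39 for pairs at least 30 bases apart (40 of 49) and -0.64 for pairs at least 200 bases apart (18 of 23). Among the alternatives that measured them, RPS7 was at least 2-fold higher in all 14, RPL18 in 13 of 14, and RPL26 and RPL37 were at least 2-fold lower in 11 and 9 of 15. No paired analysis was possible because each group has 1 array, which also allows no left-out replicate and no slide as a block. Signal over background leaves only an upper bound for 6 members on both arrays and for RPL34 on the low-fertile array.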
